A study of Mus musculus with 15 samples.

Results

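The integrated stress response genes described here are 6 effectors (Trib3, Chac1, Gdf15, Nupr1, Eif4ebp1 and Ppp1r15a) and the 4 eIF2 kinases (Eif2ak1, Eif2ak2, Eif2ak3 and Eif2ak4). They were chosen by name, with earlier results of these data known. Each of the 10 matched 1 of the 55416 Ensembl mouse gene identifiers of the count table. All 10 passed the filter on low counts that 18244 genes passed in all. RNA was sequenced from cultured neural precursor cells of the hippocampus of 6-week-old female mice, in 3 stable lines with 5 libraries each. Every line carried a piggyBac-inserted Tet-On transactivator driven by SV40 and a puromycin resistance gene. In the Atf3 line the TRE3G promoter drove the coding sequence of Atf3, in the Atf4 line that of Atf4, and the control line held the cassette with neither. EGF and FGF were withdrawn from all cultures to start differentiation, 100 ng/ml doxycycline was given to all of them, the control line included, and cells were collected at 10 h. Each construct is represented by 1 line, so the construct and the line cannot be told apart. The labels do not say whether the 5 libraries of a line came from separate cultures, so p-values reflect only how far these samples scatter, and that scatter may be technical.

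The integrated stress response slows protein synthesis when cells lack amino acids or haem, accumulate unfolded proteins or hold viral RNA. Each stress acts through a kinase that phosphorylates the alpha subunit of the initiation factor eIF2, which blocks its exchange factor eIF2B, lowers general translation and raises translation of the Atf4 mRNA. ATF4 then turns on genes for amino acid supply, redox balance and feedback, alone or with partners such as C/EBP proteins and CHOP, and ATF3 is one of the factors it induces. RNA levels do not measure kinase activity or phosphorylation of eIF2, and neither was measured here.

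Totals were 53.7 to 69.6 M counts per library, and levels below are CPM, counts scaled to library size, after TMM scaling, with factors of 0.939 to 1.05. Atf3 RNA spanned 1772 to 2107 CPM in Atf3 libraries, 1.67 to 10.998 CPM in control libraries and 1.14 to 1.90 CPM in Atf4 libraries. For Atf4 RNA these ranges were 227 to 267, 76.3 to 92.7 and 128 to 188 CPM, and transgene and endogenous RNA are counted together. Atf4 RNA was 3.01-fold above control in the Atf3 line and 1.84-fold above it in the Atf4 line. Counts of Atf4, scaled to CPM, were thus lower with the Atf4 construct than with the Atf3 construct (log2 fold change -0.71 ± 0.08 SE, adjusted p = 1.86e-06, edgeR). The Atf4 construct held the coding sequence, which is part of the 2358 exon bases annotated for the gene. Its RNA may therefore give fewer counts per molecule than endogenous Atf4 RNA. Which of these lines held more molecules of Atf4 RNA was not tested. All 6 precursor markers were detected in each line, with summed levels of 3054 to 3288 CPM in the control, 3662 to 3756 in the Atf3 and 3380 to 3466 CPM in the Atf4 libraries. Marker sums moved between lines: the 5 neuronal markers were at 1654 to 1836, 1346 to 1572 and 1371 to 1523 CPM in the control, Atf3 and Atf4 libraries. In the same order the 5 astrocyte markers summed to 642 to 714, 788 to 950 and 821 to 952 CPM, a sum led by Slc1a3, which was the 1 member called higher against control (0.86 and 0.84). The other members went the opposite way, with 3 called lower with Atf3 and 4 with Atf4, among them Gfap (-1.25 and -0.98) and S100b (-1.22 and -1.26), and the list's median log2 fold change was -0.87 and -0.98. The 7 oligodendrocyte lineage markers were at 3847 to 4419, 2922 to 3734 and 3476 to 4049 CPM. The 5 endothelial markers, led by Kdr and with Cldn5, Cdh5 and Pecam1 at most at 0.252 CPM, were at 44.9 to 49.1, 12.4 to 18.5 and 18.4 to 21.5 CPM. Of these markers Kdr was called lower in both lines (-2.14 and -1.43), and Pecam1 with Atf3 only (-0.77). Tek went the opposite way and was called higher in both (1.42 and 0.87). The 4 ependymal markers were at 21.2 to 25.2, 30.9 to 41.1 and 29.5 to 38.3 CPM. This sum was led by Foxj1, which was called higher in both lines (0.62 and 0.59). The other members, Ccdc153, Tmem212 and Rarres2, had means under 1 CPM in each line. Of these, Ccdc153 was called higher with Atf3 only (0.76), Rarres2 was not called (-0.21 and -0.19) and Tmem212 was not tested. Microglial markers summed to at most 1.51 CPM and mural markers to at most 0.985 CPM. The part of these shifts in the results below was not tested, and in bulk RNA fewer cells of a type and less RNA per cell cannot be told apart.

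Promoter sequence is shown for 4 effectors, since binding sites of ATF4 and ATF3 are known from gene promoters. Of the 10 genes, 9 had a promoter entry in RefSeq (GRCm38.p6), and Eif4ebp1 did not. Both strands were searched from 250 bases before to 50 bases after each start for TGATGCAA and TGACGCAA, C/EBP-ATF composite elements, for TGACGTCA, the cAMP response element, and for TGANTCA. The last is a loose form of the AP-1 element that takes any base at the centre, where the usual element has C or G. No letters of a match were shared between these motifs in the 9 genes. The motifs were picked with the sequences known. In the lines below capitals mark each match, and bases read 5′ to 3′ on the gene's strand.
Trib3, chr2:152344061-152344310, minus strand: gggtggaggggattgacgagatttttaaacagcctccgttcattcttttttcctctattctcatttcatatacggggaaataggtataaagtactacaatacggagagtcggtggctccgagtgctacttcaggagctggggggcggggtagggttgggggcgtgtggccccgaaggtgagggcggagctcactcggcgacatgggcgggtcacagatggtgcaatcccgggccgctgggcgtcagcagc
Chac1, chr2:119350992-119351228, plus strand: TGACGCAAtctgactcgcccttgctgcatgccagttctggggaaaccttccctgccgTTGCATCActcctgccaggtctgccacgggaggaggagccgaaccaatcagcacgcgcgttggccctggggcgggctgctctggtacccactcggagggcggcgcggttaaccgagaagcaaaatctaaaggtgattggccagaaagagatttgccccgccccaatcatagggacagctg
Nupr1, chr7:126625562-126625591, minus strand: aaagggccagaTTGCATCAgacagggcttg
Ppp1r15a, chr7:45526269-45526329, minus strand: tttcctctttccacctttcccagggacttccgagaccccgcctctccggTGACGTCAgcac

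Chac1 held both composite elements, TGACGCAA beginning 250 bases before its start and TGATGCAA read on the other strand, as TTGCATCA, beginning 193 bases before it. Nupr1 held TTGCATCA beginning 110 bases before its RefSeq start. That start lies inside the span of 126623249 to 126630861 that GENCODE gives the gene on the minus strand. Over 32851 promoters of 300 bases, TGATGCAA was present in 0.895%, TGACGCAA in 0.49% and either in 1.37%. Ppp1r15a held TGACGTCA beginning 12 bases before its start, a motif in 1.79% of promoters. Eif2ak3 held TGATTCA, a match to the loose form with T at the centre, beginning 185 bases before its start. TGANTCA was present in 7.81% of promoters. No match lay in the windows of Trib3, Gdf15, Eif2ak1, Eif2ak2 or Eif2ak4. Trib3 is shown as the gene with the largest change and no match, and a match describes letters, not binding.

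Against the control line, 5 of the 6 effectors were higher in the Atf3 line and the same 5 were higher in the Atf4 line, from 2.83-fold to 15.04-fold. Ppp1r15a, the inducible phosphatase subunit that ends the response, went apart from them and was lower in the Atf4 line. The kinases moved by at most 1.17-fold in either direction. A gene was called when its adjusted p was under 0.05 in edgeR's quasi-likelihood test, adjusted over all genes tested. Between the Atf3 and control lines 9 of the 10 genes were called, 7 higher and 2 lower, on a background where 73.2% of tested genes were called, 36.8% higher and 36.3% lower. For Atf4 against control 9 were also called, 7 higher and 2 lower, with 61.6% of all genes called, 31.9% higher and 29.7% lower. For Atf4 against Atf3 7 were called, 1 higher and 6 lower, with 43.6% of all genes called, 19.7% higher and 23.9% lower. Because calls were so common, the genes are described below by the size of the change. Called genes at least 2-fold higher made up 7.12% of tested genes for Atf3 and 4.19% for Atf4, and 5 of the 10 genes were among them in each. Libraries of the lines compared did not overlap for 7 genes in Atf3 against control, all 7 higher, where 60.7% of all tested genes were separated, 32% higher. In Atf4 against control 6 genes were separated higher and 1 lower, with 47.9% of all genes separated, 26.1% higher and 21.8% lower. In Atf4 against Atf3 1 was separated higher and 2 lower, with 25.8% of all genes separated, 9.52% higher and 16.3% lower. The median log2 fold change of the effectors was 2.68 for Atf3 and 2.04 for Atf4 against control, that of the kinases 0.03 and 0.09, and that of all tested genes -0.02 and -0.00085.

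**Figure D1:**
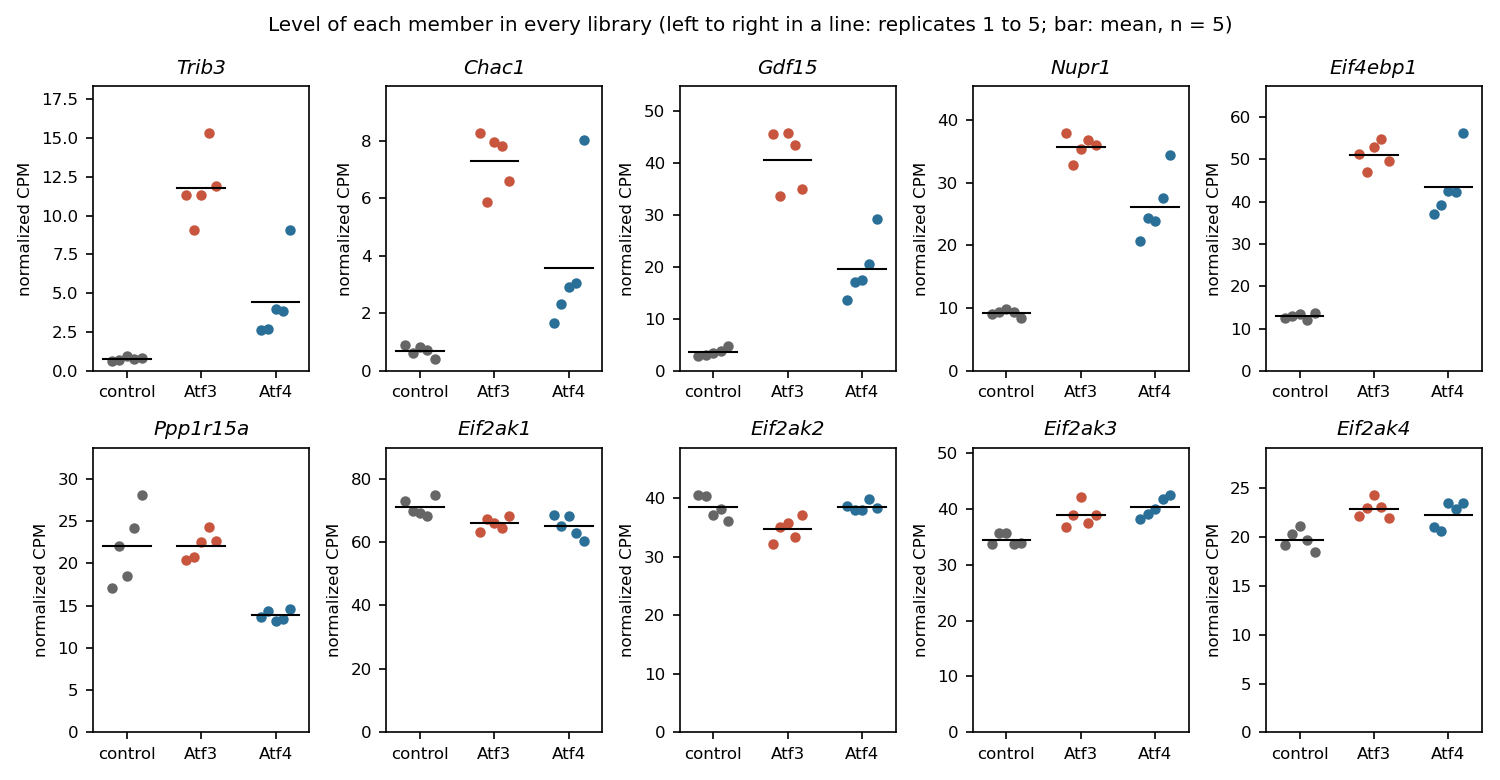
Level of each gene in every library, in normalized CPM on a linear axis from 0, with replicates 1 to 5 from left to right within a line and a bar at the mean of 5. Trib3, Chac1, Gdf15, Nupr1 and Eif4ebp1 stand above the control line in all Atf3 and Atf4 libraries, Ppp1r15a is at 13.2 to 14.6 CPM in the Atf4 line against 17.1 to 28.1 CPM in the control line, and the kinases move little.

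Trib3 (ENSMUSG00000032715, GRCm38 chromosome 2, 152337422 to 152344032, minus strand, protein-coding) encodes a pseudokinase that binds and restrains ATF4 and Akt. It was low in the control line, at 0.643, 0.734, 0.949, 0.757 and 0.831 CPM in replicates 1 to 5. Atf3 libraries held 11.4, 9.06, 11.3, 15.3 and 11.9 CPM, and Atf4 libraries 2.66, 2.73, 3.96, 3.85 and 9.09 CPM. Every library of either line was above every control library, and Atf4 replicate 5 alone of its line reached the Atf3 range. Trib3 rose 15.04-fold in the Atf3 line (log2 fold change 3.91 ± 0.30 SE, adjusted p = 9.88e-10, edgeR), rank 20 from the top of 18244 genes. Atf4 libraries showed a rise of 5.63-fold (2.49 ± 0.31 SE, adjusted p = 1.41e-06, edgeR), with a rank of 49. Atf4 libraries lay 2.67-fold below Atf3 libraries (-1.42 ± 0.24 SE, adjusted p = 1.51e-04, edgeR).

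Chac1 (ENSMUSG00000027313, chromosome 2, 119351229 to 119354381, plus strand, protein-coding) encodes an enzyme that breaks down glutathione. Control libraries held 0.916, 0.627, 0.826, 0.727 and 0.430 CPM, a level resting on as few as 29 counts. Atf3 libraries stood at 8.25, 5.86, 7.96, 7.80 and 6.61 CPM. In the Atf4 line the values were 1.67, 2.32, 2.92, 3.05 and 8.01 CPM. Control libraries were again below all others, and the last Atf4 value lay inside the Atf3 range. Chac1 rose 10.4-fold in the Atf3 line (3.37 ± 0.34 SE, adjusted p = 5.23e-08, edgeR) and 5.05-fold in the Atf4 line (2.34 ± 0.36 SE, adjusted p = 1.47e-05, edgeR). Between the transgenic lines it was 2.05-fold lower in the Atf4 line (-1.04 ± 0.28 SE, adjusted p = 0.00657, edgeR).

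Gdf15 (ENSMUSG00000038508, chromosome 8, 70629393 to 70632456, minus strand, protein-coding) encodes a secreted hormone of the TGF-beta superfamily that is released by stressed cells. Its control libraries held 2.86, 3.15, 3.53, 3.76 and 4.73 CPM. Values in the Atf3 line were 45.5, 33.6, 45.7, 43.4 and 35.1 CPM, and in the Atf4 line 13.6, 17.1, 17.5, 20.6 and 29.2 CPM. The 3 lines did not overlap in any library, and Gdf15 was the only effector besides Ppp1r15a with that separation between the Atf4 and Atf3 lines. It rose 11.2-fold in the Atf3 line (3.49 ± 0.18 SE, adjusted p = 5.3e-12, edgeR) and 5.399-fold in the Atf4 line (2.43 ± 0.18 SE, adjusted p = 1.72e-09, edgeR). Gdf15 was 2.08-fold lower in the Atf4 line than under Atf3 (-1.06 ± 0.16 SE, adjusted p = 3.48e-05, edgeR). Trib3, Chac1 and Gdf15 were thus all called at least 2-fold lower in that comparison, as were 0.954% of all tested genes. Of the partners through which GDF15 signals, the receptor Gfral was listed at 0 counts in 14 of 15 libraries and at 3 in the other. Its co-receptor Ret was at most at 0.369 CPM, and fell in the Atf3 line (-1.46 ± 0.26 SE, adjusted p = 5.09e-05, edgeR).

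Nupr1 (ENSMUSG00000030717, chromosome 7, 126623249 to 126630861, minus strand, protein-coding) encodes a small stress-induced nuclear protein that takes part in transcriptional regulation. Control libraries held 9.01, 9.44, 9.90, 9.45 and 8.44 CPM. It reached 37.8, 32.8, 35.3, 36.8 and 36.0 CPM in Atf3 libraries and 20.6, 24.3, 23.9, 27.6 and 34.4 CPM in the Atf4 line. The spread among Atf3 libraries was small, and Atf4 replicate 5 lay within it. Nupr1 rose 3.87-fold in the Atf3 line (1.95 ± 0.10 SE, adjusted p = 4.5e-12, edgeR) and 2.83-fold in the Atf4 line (edgeR adjusted p = 3.77e-10). The line with Atf4 was lower than that with Atf3 (-0.45 ± 0.09 SE, adjusted p = 8.13e-04, edgeR).

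Eif4ebp1 (ENSMUSG00000031490, chromosome 8, 27260329 to 27276674, plus strand, protein-coding) encodes 4E-BP1, which binds the cap-binding factor eIF4E and blocks cap-dependent translation unless mTORC1 phosphorylates it. Its control libraries held 12.5, 12.9, 13.4, 12.01 and 13.6 CPM. The Atf3 libraries held 51.2, 47.1, 52.9, 54.7 and 49.5 CPM, and the Atf4 libraries 37.0, 39.1, 42.6, 42.3 and 56.1 CPM. All 10 transgenic libraries were above all 5 control libraries, and the highest value of all was in the Atf4 line. Eif4ebp1 rose 3.97-fold in the Atf3 line (1.99 ± 0.09 SE, adjusted p = 5.81e-13, edgeR) and 3.37-fold in the Atf4 line (1.75 ± 0.09 SE, adjusted p = 8.26e-12, edgeR). The difference between both lines was small (-0.24 ± 0.08 SE, adjusted p = 0.0257, edgeR) and lost its call in 9 of 24 alternative analyses. Among these were upper-quartile scaling, plain totals, a fit of both lines alone, and leaving out Atf3 replicate 3 or 4 or any of Atf4 replicates 1 to 4 (edgeR adjusted p = 0.052 to 0.181). Eif4e, the partner that 4E-BP1 holds, rose as well, 2.17-fold in the Atf3 line (1.12 ± 0.04 SE, adjusted p = 9.53e-14, edgeR) and 1.63-fold in the Atf4 line (0.71 ± 0.04 SE, adjusted p = 6.6e-11, edgeR).

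Ppp1r15a (ENSMUSG00000040435, chromosome 7, 45522916 to 45526268, minus strand, protein-coding) encodes GADD34, which brings protein phosphatase 1 to eIF2 and so reverses the work of the kinases. Its control libraries were scattered, at 17.1, 22.1, 18.5, 24.2 and 28.1 CPM. Atf3 libraries held 20.3, 20.7, 22.5, 24.3 and 22.6 CPM, inside the control range. The Atf4 libraries held 13.7, 14.4, 13.2, 13.4 and 14.6 CPM, below every library of both other lines. Ppp1r15a was 1.59-fold lower in the Atf4 line than in controls (-0.67 ± 0.10 SE, adjusted p = 1.25e-05, edgeR). It was also 1.59-fold lower than in the Atf3 line (-0.67 ± 0.10 SE, adjusted p = 3.74e-05, edgeR). For Atf3 against control the change was 0.0053 ± 0.10 SE (edgeR adjusted p = 0.965), with a 95% interval of -0.19 to 0.20. Control replicates 4 and 5, the highest for Ppp1r15a, also held 10.998 and 7.55 CPM of Atf3 RNA against 1.67 to 3.03 CPM in the other 3. Without both, the Atf3 change was called (0.19 ± 0.08 SE, adjusted p = 0.0402, edgeR) and the Atf4 change stayed called at -0.48.

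Its constitutive paralog Ppp1r15b, which serves the same phosphatase, was higher in the Atf3 line (0.45 ± 0.07 SE, adjusted p = 1.4e-05, edgeR). In the Atf4 line Ppp1r15b was also called higher (0.21 ± 0.07 SE, adjusted p = 0.0152, edgeR), a call that ended with upper-quartile scaling (edgeR adjusted p = 0.0578) and without control replicate 1 (edgeR adjusted p = 0.0551) or Atf4 replicate 4 or 5 (0.18 and 0.12, edgeR adjusted p = 0.0521 and 0.0695). The ratio of Ppp1r15a to Ppp1r15b in CPM per kb of exon was 0.334 ± 0.0558 in the control line, 0.248 ± 0.0302 with Atf3 and 0.185 ± 0.0214 with Atf4 (SD, n = 5). The ratio ranged from 0.278 to 0.403, 0.219 to 0.295 and 0.159 to 0.208 in these lines. Each Atf4 library was thus below each library of both other lines, while the Atf3 and control ranges overlapped.

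**Figure D2:**
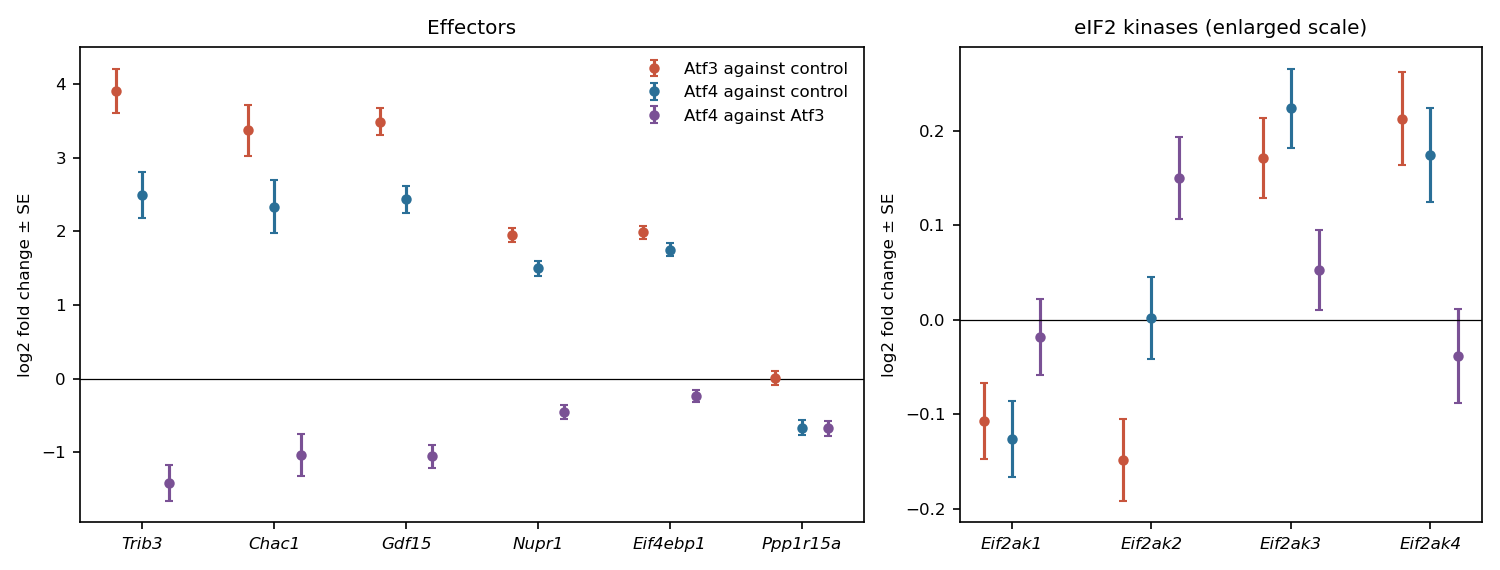
Log2 fold change with its standard error in the 3 comparisons, for the effectors at left and the kinases at right on an enlarged axis. Trib3, Gdf15 and Chac1 change most, at 3.91, 3.49 and 3.37 in the Atf3 line, and the largest kinase change is 0.22.

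Atf4 replicate 5 stood apart from the rest of its line, in the effectors and beyond them. It held 2.76 times the mean of the other 4 libraries for Trib3, 3.22 times for Chac1, 1.70 times for Gdf15, 1.43 times for Nupr1 and 1.39 times for Eif4ebp1. Atf4 RNA in that library was 1.30 times the mean of the others, at 188 CPM against 128 to 154 CPM. Atf3 RNA there was 1.90 CPM, against 1772 CPM or more in the Atf3 line. Ppp1r15a was 1.07 times the mean of the others. Of the other known ATF4 targets 5 were compared in this way. Stc2 was at 2.08, Slc7a11 at 2.04, Mthfd2 at 1.73, Asns at 1.26 and Cth at 1.24 times the mean of the others. The remaining targets of the list described below were not compared for that library. Among these, Psat1 spanned 586 to 624 CPM and Ddit4 168 to 256 CPM over the Atf4 libraries. Across genes, the chi-square of counts per degree of freedom between that library and the other Atf4 libraries was 11.7 to 53.4, against 6.59 to 24.5 among the other 4. Without that library the log2 fold changes against control were 2.05 for Trib3, 1.80 for Chac1, 2.23 for Gdf15, 1.37 for Nupr1 and 1.63 for Eif4ebp1, and all 5 stayed called in edgeR. Against the Atf3 line they were -1.84, -1.55, -1.24, -0.56 and -0.34, each larger in size than with it.

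**Figure D3:**
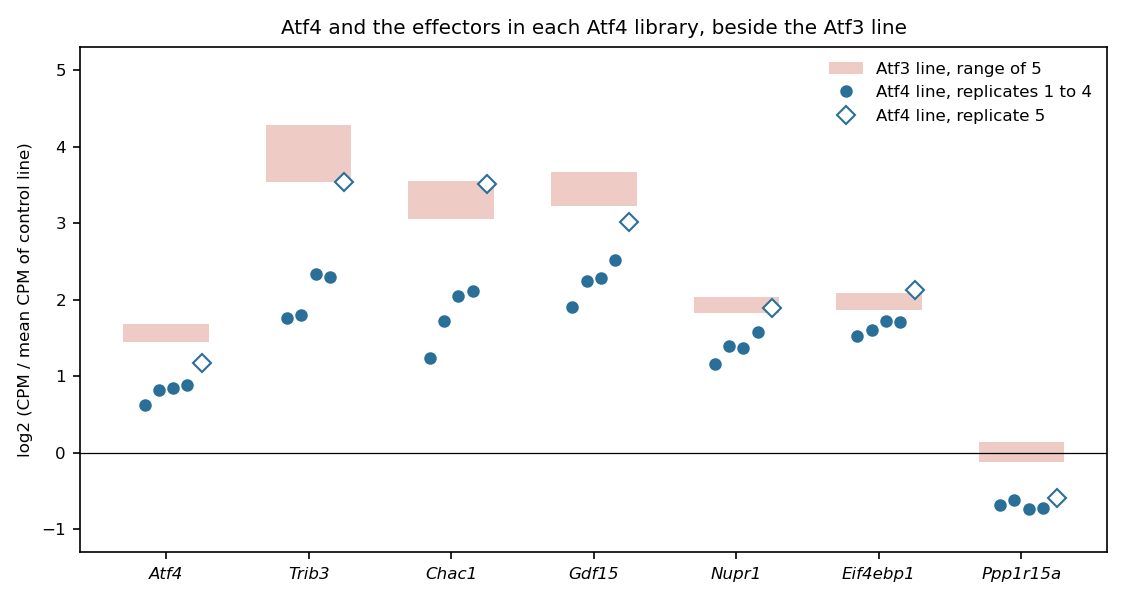
Atf4 and the 6 effectors in each Atf4 library as log2 of CPM over the control mean, with the Atf3 line as a shaded range of 5 libraries. Replicate 5, the open diamond, holds 9.09 CPM of Trib3 and 8.01 CPM of Chac1, inside the Atf3 range, while its Atf4 RNA of 188 CPM lies below that range.

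The 4 kinases were expressed in every library, and each is known for sensing a different stress. Eif2ak1 (ENSMUSG00000029613, chromosome 5, 143817788 to 143904251, plus strand, protein-coding) encodes HRI, which responds to lack of haem and to mitochondrial stress. Control libraries held 72.9, 69.8, 69.0, 68.2 and 74.8 CPM, Atf3 libraries 63.2, 67.2, 66.1, 64.5 and 68.3 CPM, and Atf4 libraries 68.7, 65.0, 68.3, 62.9 and 60.3 CPM. The ranges of the lines overlapped. Eif2ak1 was called lower in the Atf3 line (-0.11 ± 0.04 SE, adjusted p = 0.0231, edgeR) and in the Atf4 line (-0.13 ± 0.04 SE, adjusted p = 0.0113, edgeR). Leaving out Atf3 replicate 1 or 4 ended the first call (edgeR adjusted p = 0.0746 and 0.0567), and testing all genes without a filter on low counts ended both (edgeR adjusted p = 0.184 and 0.0792).

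Eif2ak2 (ENSMUSG00000024079, chromosome 17, 78852564 to 78882573, minus strand, protein-coding) encodes PKR, the interferon-inducible sensor of double-stranded RNA. Its values were 40.6, 40.4, 37.2, 38.2 and 36.1 CPM in the control line and 32.2, 35.0, 35.8, 33.5 and 37.2 CPM in the Atf3 line. Atf4 libraries held 38.6, 37.9, 38.0, 39.9 and 38.3 CPM, close to the control mean and all above the Atf3 line. Eif2ak2 fell in the Atf3 line (-0.15 ± 0.04 SE, adjusted p = 0.00499, edgeR). It was higher in the Atf4 line than under Atf3 (0.15 ± 0.04 SE, adjusted p = 0.00914, edgeR), the 1 kinase called there and the 1 gene of the 10 higher in that comparison. No change was called for Atf4 against control (0.0021, 95% interval -0.08 to 0.09, edgeR adjusted p = 0.97), and its sign turned under other scalings.

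Eif2ak3 (ENSMUSG00000031668, chromosome 6, 70844515 to 70905245, plus strand, protein-coding) encodes PERK, the kinase of the endoplasmic reticulum membrane that senses unfolded proteins. Control libraries held 33.7, 35.6, 35.6, 33.6 and 33.9 CPM. Atf3 libraries held 36.7, 38.8, 42.1, 37.4 and 38.9 CPM, and Atf4 libraries 38.2, 39.0, 40.0, 41.7 and 42.4 CPM. Every transgenic library was above every control library. Eif2ak3 rose in the Atf4 line (0.22 ± 0.04 SE, adjusted p = 1.47e-04, edgeR) under every scaling tried. In the Atf3 line it was called with TMM (0.17 ± 0.04 SE, adjusted p = 0.00134, edgeR), but with plain library totals it was at 0.03 (edgeR adjusted p = 0.486) and with upper-quartile scaling at 0.05 (edgeR adjusted p = 0.272).

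Eif2ak4 (ENSMUSG00000005102, chromosome 2, 118388618 to 118475234, plus strand, protein-coding) encodes GCN2, which is activated by uncharged tRNA when amino acids run short. It stood at 19.2, 20.3, 21.1, 19.7 and 18.5 CPM in the control line, 22.2, 23.0, 24.3, 23.1 and 21.9 CPM in the Atf3 line, and 21.0, 20.6, 23.5, 22.9 and 23.5 CPM in the Atf4 line. Atf3 libraries were all above control libraries, and 2 Atf4 libraries fell inside the control range. Eif2ak4 was called higher in the Atf3 line (0.21 ± 0.05 SE, adjusted p = 8.16e-04, edgeR), a call that plain totals (0.07, edgeR adjusted p = 0.182) and upper-quartile scaling (0.09, edgeR adjusted p = 0.0948) ended. In the Atf4 line it was called higher too (0.17 ± 0.05 SE, adjusted p = 0.00506, edgeR), though not without control replicates 4 and 5 (0.13, edgeR adjusted p = 0.0713). Plain totals moved the median of all genes from -0.02 to -0.16 in Atf3 against control, and the split of called genes from 50.3% to 38.4% higher. For Atf4 against Atf3 the same setting moved it from 0.0070 to 0.11, and the split from 45.2% to 72.4% higher.

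Between the Atf4 and Atf3 lines Eif2ak1, Eif2ak3 and Eif2ak4 were not called, at -0.02, 0.05 and -0.04 with 95% intervals of -0.10 to 0.06, -0.03 to 0.14 and -0.14 to 0.06. Plain totals called Eif2ak3 higher there (0.15, edgeR adjusted p = 0.00547), as did upper-quartile scaling (0.12, edgeR adjusted p = 0.0269). The summed level of the kinases per kb of exon was 28.4 ± 0.498 CPM per kb in the control line, 27.9 ± 1.02 with Atf3 and 28.7 ± 0.458 CPM per kb with Atf4 (SD, n = 5), and these ranges overlapped. Eif2ak1 made up 44.0%, 41.6% and 40.0% of that sum. The kit was unstranded, and other annotated genes shared 8.59% of the exon bases of Eif2ak1 (Aimp2), 8.05% of those of Eif2ak3 (Gm43292) and 3.40% of those of Eif2ak2 (Gm26637). The part of reads from these neighbours in the kinase values was not tested. Among the effectors, Ppp1r15a shared 0.409% with Tulp2 and the other 5 shared none.

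Set against each other per kb of exon, the 10 genes changed order between lines. In the control line Eif2ak1 led at 12.5 CPM per kb, followed by Eif2ak2 at 7.53, Ppp1r15a at 7.49, Eif4ebp1 at 5.86 and Eif2ak3 at 5.72 CPM per kb, where library ranges of neighbours after the first overlapped. Nupr1 at 3.68, Eif2ak4 at 2.65 and Gdf15 at 1.95 CPM per kb came next, the last pair overlapping, and Chac1 at 0.431 and Trib3 at 0.368 CPM per kb overlapped at the bottom. In the Atf3 line Eif4ebp1 at 23.3 and Gdf15 at 21.96 CPM per kb led and overlapped, above Nupr1 at 14.2 and Eif2ak1 at 11.6 CPM per kb. Below these, Ppp1r15a at 7.52, Eif2ak2 at 6.79, Eif2ak3 at 6.44, Trib3 at 5.55 and Chac1 at 4.46 CPM per kb each overlapped the next, and Eif2ak4 came last at 3.07 CPM per kb. In the Atf4 line Eif4ebp1 led at 19.8 CPM per kb, and Eif2ak1 at 11.5, Gdf15 at 10.6 and Nupr1 at 10.4 CPM per kb overlapped. Eif2ak2 at 7.54, Eif2ak3 at 6.68 and Ppp1r15a at 4.72 CPM per kb were separate from each other. Eif2ak4 at 2.99, Chac1 at 2.19 and Trib3 at 2.10 CPM per kb overlapped at the bottom.

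**Figure D4:**
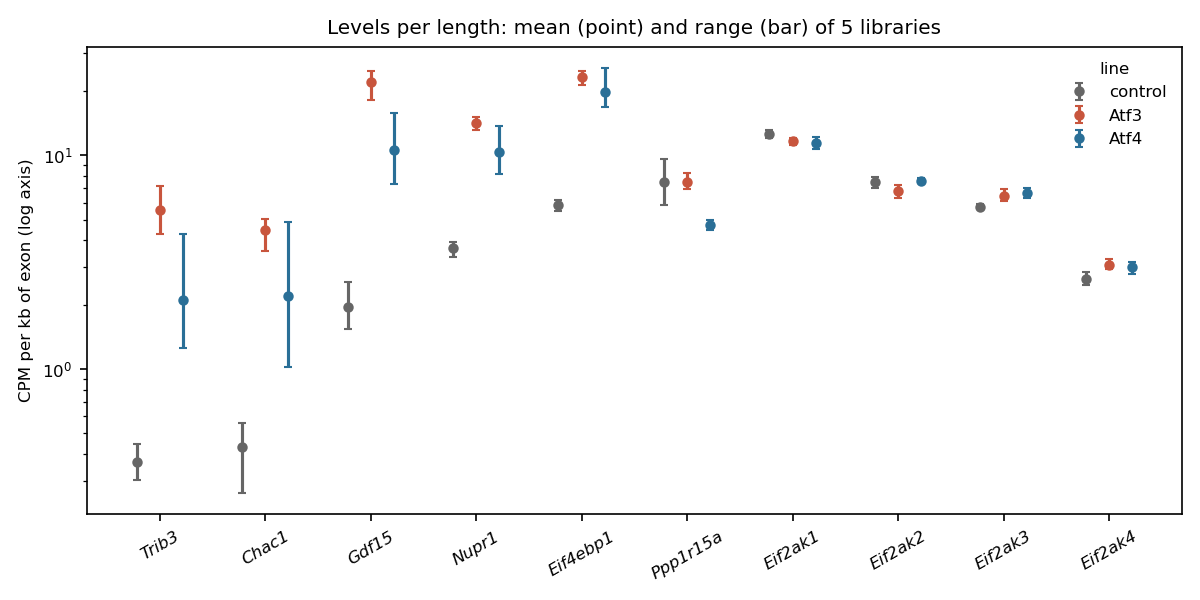
Mean level per kb of exon on a log axis, with bars from the lowest to the highest of 5 libraries, for each line. In the control line the kinases span 2.65 to 12.5 CPM per kb and Trib3 and Chac1 lie under 0.5 CPM per kb, while in the Atf3 line these 2 effectors exceed Eif2ak4.

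The rest of the pathway was read from lists of known components, also chosen with earlier results of these data known. Of the 7 transcription factors of the response, 7 were called higher in the Atf3 line, and 5 higher and 1 lower in the Atf4 line, where 36.8% and 31.9% of all genes tested were called higher. This list holds both transgenes. The 1 factor lower in the Atf4 line was Atf3 (-1.88 ± 0.43 SE, adjusted p = 9.15e-04, edgeR), with overlapping libraries. Its change was called in all 25 alternatives, at -2.12 to -0.65. Atf5, a factor that responds to amino acid and mitochondrial stress, rose in both lines (1.10 ± 0.05 SE and 0.89 ± 0.05 SE, edgeR adjusted p = 3.03e-13 and 1.26e-11). Cebpb, a dimer partner of ATF4, rose by 1.30 and 0.91. Ddit3, which encodes CHOP, rose in the Atf3 line (0.53 ± 0.07 SE, adjusted p = 2.88e-06, edgeR), and its change of -0.09 in the Atf4 line was not called (edgeR adjusted p = 0.325). Ddit3 differed between both lines (-0.62 ± 0.07 SE, adjusted p = 4.07e-06, edgeR). Another identifier with the symbol Ddit3, of 105 exon bases all shared with the gene used here, was left out.

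Of the 14 other known targets of ATF4 or CHOP 13 were tested, and 11 were higher in each line, while 2 were lower in Atf3 and 1 in Atf4 libraries. Of all genes tested 36.8% and 31.9% were called higher. The median log2 fold change of the list was 1.04 and 0.67, against -0.02 and -0.00085 over all genes. The folate enzyme Mthfd2 rose by 3.91 and 3.09, the secreted glycoprotein Stc2 by 3.23 and 2.18, asparagine synthetase Asns by 2.01 and 1.65 and the cystine carrier Slc7a11 by 1.88 and 1.93. Ddit4, a brake on mTORC1, was lower by called changes of -0.60 and -0.37, the latter not called without control replicates 4 and 5 (-0.28, edgeR adjusted p = 0.0528). Herpud1, a gene of protein disposal at the endoplasmic reticulum, was lower in the Atf3 line (-0.20).

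The initiation factors on which the kinases act were examined next. Of 8 eIF2 and eIF2B subunits 7 were called higher in each line, and Eif2b2 was not, beside 36.8% and 31.9% of all genes tested called higher, with medians of 0.64 and 0.38. Eif2s1, which encodes the phosphorylated alpha subunit, rose from 65.7 ± 2.30 CPM to 146 ± 9.55 CPM in Atf3 and 111 ± 9.71 CPM in Atf4 libraries (SD, n = 5). Its log2 fold changes were called (1.15 ± 0.06 SE and 0.75 ± 0.06 SE, edgeR adjusted p = 1.9e-12 and 1.36e-09). Eif2b3, a subunit of the exchange factor, rose by 1.29 and 0.81. Of 13 regulators of the kinases and the phosphatase, 10 rose and 3 fell in the Atf3 line, and 8 rose and 2 fell in the Atf4 line, with medians of 0.24 and 0.18. Over all genes tested, 36.8% were called higher and 36.3% lower with Atf3, and 31.9% and 29.7% with Atf4. Hspa5, the chaperone that holds PERK inactive, rose by 0.70 and 0.57. Oma1 and Dele1, the mitochondrial relay to HRI, rose by 0.36 and 0.35 in the Atf3 line and by 0.26 and 0.18 in the Atf4 line. Gcn1, an activator of GCN2, was called higher (0.26 and 0.17), but plain totals and upper-quartile scaling ended both calls. The second call was lost in 15 of 25 alternatives, among them limma-voom, RLE scaling, the 1 CPM filter and a fit of 2 lines only. Leaving out any 1 control library, or Atf4 replicate 3, 4 or 5, ended the second call (edgeR adjusted p = 0.0683 to 0.229). Impact, the antagonist of Gcn1, was called lower (-0.12 and -0.21), in the Atf3 line not without the filter on low counts (edgeR adjusted p = 0.0971). Dnajc3, an inhibitor of PERK and PKR, was higher in the Atf4 line (0.29), and its called change of 0.12 in the Atf3 line turned to -0.01 with plain totals.

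Of 7 paralogs of the effectors 3 rose and 1 fell in the Atf3 line, and 2 rose and 1 fell in the Atf4 line. These 4 and 3 called of 7 stand beside 73.2% and 61.6% of all genes tested called in either direction. Trib1 and Trib2 rose in the Atf3 line (0.89 ± 0.16 SE and 0.63 ± 0.07 SE, edgeR adjusted p = 5.36e-05 and 3.9e-07). Their changes in the Atf4 line were -0.0057 and 0.03 (edgeR adjusted p = 0.978 and 0.716), and both were lower there than in the Atf3 line (-0.89 and -0.60, edgeR adjusted p = 1.85e-04 and 6.29e-06). Nupr2 fell in both lines (-0.92 and -0.43, edgeR adjusted p = 2.28e-07 and 9.76e-04). Eif4ebp2 stood at 291 ± 8.14 CPM in the control line and was called in neither comparison in the main edgeR analysis. Plain totals gave -0.10 in both (edgeR adjusted p = 0.00478 and 0.00697). Upper-quartile scaling gave -0.08 and -0.12 (edgeR adjusted p = 0.0156 and 0.00168). In the Atf4 line its change of -0.06 was called in 9 of 25 alternatives. Among these were DESeq2 (DESeq2 adjusted p = 0.0386) and the 1 CPM filter (edgeR adjusted p = 0.00698). Leaving out control replicates 4 and 5 together also gave a call (edgeR adjusted p = 0.0391). So did leaving out control replicate 3 or 4 or Atf4 replicate 4 or 5 (edgeR adjusted p = 0.0163 to 0.0429). Chac2 was at 0.11 in the Atf3 line (edgeR adjusted p = 0.0649, and 0.0413 without Atf3 replicate 5) and rose by 0.20 in the Atf4 line (edgeR adjusted p = 0.00358).

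**Figure D5:**
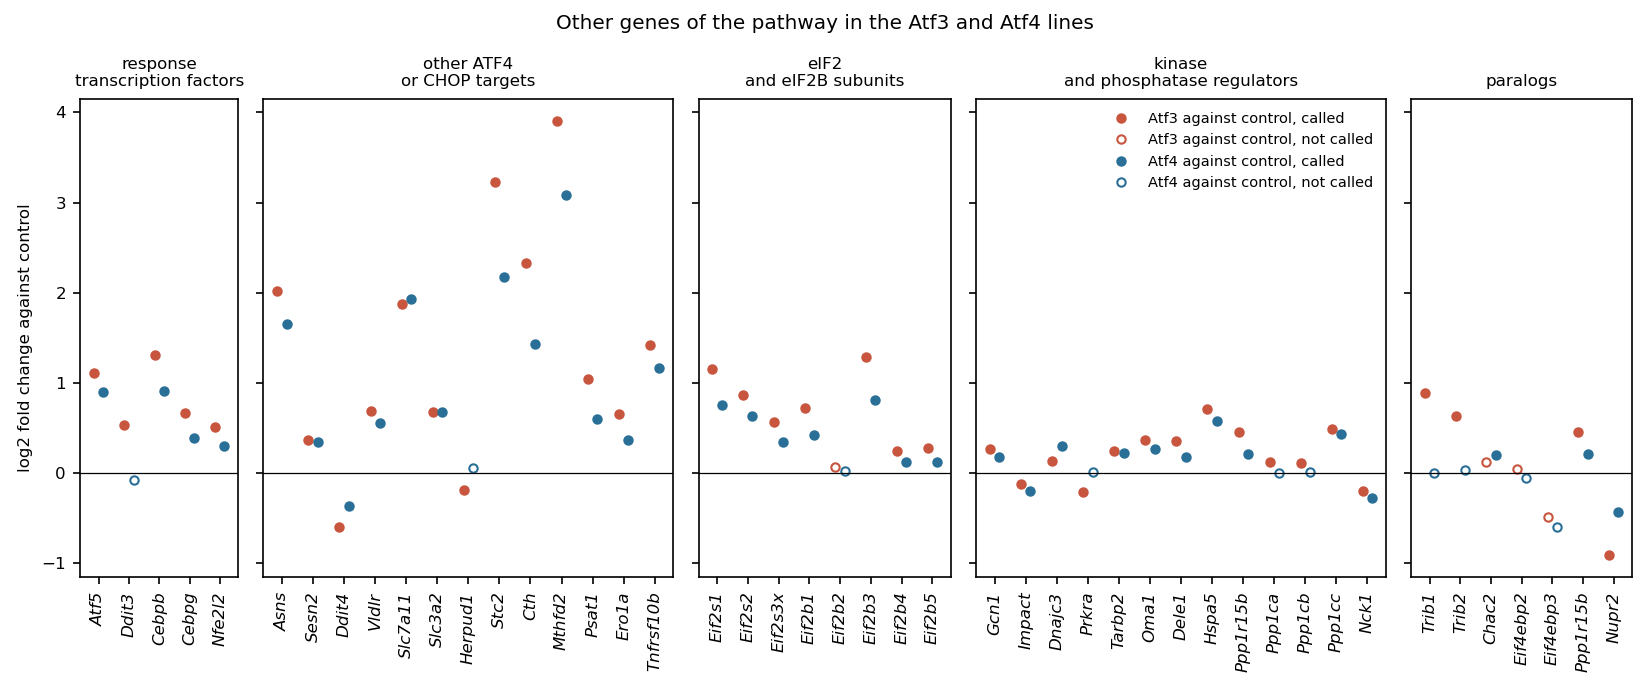
Log2 fold change against control of the other pathway genes, without the transgenes, filled where called and open where not. Mthfd2 (3.91 and 3.09) and Stc2 (3.23 and 2.18) reach the size of the effectors, while most regulators lie within 0.5 of 0.

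For the member with the largest change, and for the kinase with the largest change in the Atf3 line, genes outside the 10 with a symbol and a mean of at least 2 log2 CPM were ranked by likeness of pattern, the root mean square difference between centred log2 CPM over 15 libraries. Among these, closest to Trib3 were Ccnd2 at 0.331, Stc2 at 0.338 and the noncoding gene C030034L19Rik at 0.350. Nearest to Eif2ak4 were Capn15 at 0.0491, Alg10b at 0.0526 and Crkl at 0.0533.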

How the data were processed

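RNA from 15 libraries, 5 per line, was sequenced as unstranded paired reads, per the labels' protocols. The authors deposited raw read counts per Ensembl gene, with no normalization. The submitters' processing notes name STAR, edgeR and mm10. How reads were counted, with which strand setting and annotation, is not given in the sources used here. Lines and replicate numbers came from the titles. Symbols, positions and exon lengths came from GENCODE M21 on GRCm38, and 52083 of 55416 identifiers received a symbol. Promoters came from RefSeq, and stretches shown avoid annotated exons or hold a match with 11 bases on each side.

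Counts were fitted with edgeR 4.0.16 in R 4.3.3, with TMM scaling, filterByExpr and all 15 libraries in 1 model, and lines were compared with the quasi-likelihood test, two-sided, adjusted by Benjamini and Hochberg over 18244 genes. The SE is the size of the log2 fold change divided by the square root of F. No pair of libraries within 1 line agreed within sampling noise. The members and lists were chosen with earlier results of these data known. Named are the 10 members, both transgenes and genes of the lists. Scripts were tested on simulated counts. The alternatives were DESeq2 1.42.0, limma-voom from limma 3.58.1, RLE, upper-quartile and plain-total scaling, no filter, a filter at 1 CPM in 5 libraries, 2 lines only, a replicate block, leaving out each library, and leaving out control replicates 4 and 5.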

Additional observations from a re-analysis of the deposited data

Results flagged for a closer look

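Among 30 checks of a highest or lowest library within a line, 1 for each gene and line, 2 found a library far from the other 4 by Dixon's test at its 95% level, where chance gives about 1 in 20. Trib3 in Atf4 replicate 5 stood at 9.09 CPM, with the other Atf4 libraries at 2.66 to 3.96 CPM. Chac1 in the same library stood at 8.01 CPM, with the others at 1.67 to 3.05 CPM. The reason for this library's position was not tested.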

How the results depend on the processing

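For Trib3, Chac1, Gdf15, Nupr1 and Eif4ebp1 against control in both lines, and for the fall of Ppp1r15a in the Atf4 line, direction and call were kept under all 25 alternatives of each comparison. With no filter on low counts 1 gene in place of 2 was called lower in Atf3 against control, and likewise 1 in Atf4 against control. Leaving out single libraries gave 1 to 2 called lower in Atf3 against control, with 1 without Atf3 replicate 1 or 4. Upper-quartile scaling and plain totals gave 2 genes higher in Atf4 against Atf3 in place of 1. Over all genes, plain totals gave 6197 higher and 2367 lower in Atf4 against Atf3, against 3595 and 4363, and the cause was not tested beyond the shift of the median given above.

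Signs turned for changes near 0. Ppp1r15a in Atf3 against control was at -0.0012 with DESeq2, -0.0020 with RLE scaling, -0.114 with upper-quartile scaling, -0.132 with plain totals and -0.0546 with the 1 CPM filter, and -0.0850 to 0.0949 when single libraries were left out. Eif2ak2 in Atf4 against control was at -0.00283, -0.00290, -0.0546, -0.0346 and -0.0314 in the same order, -0.0016 with 2 lines only, -0.0435 without control replicates 4 and 5, and -0.0333 to 0.0103 with single libraries left out. In Atf4 against Atf3, Eif2ak1 was at 0.0455, 0.0831 and 0.00798 with upper-quartile scaling, plain totals and the 1 CPM filter and at -0.0372 to 0.0119 with single libraries left out, and Eif2ak4 was at 0.0253 and 0.0633 with the first pair. In Atf3 against control, upper-quartile scaling and plain totals gave -0.00640 and -0.0244 for Chac2 and -0.0843 and -0.102 for Eif4ebp2, which the 1 CPM filter put at -0.0240, and plain totals gave -0.0142 for Dnajc3. In Atf4 against control they gave -0.0235 and -0.00294 for Trib2, and upper-quartile scaling gave -0.00398 for Herpud1. Trib1 was at 0.0148 with no filter and 0.0697 without control replicates 4 and 5, where Ddit3 was at 0.0163. With single libraries left out, Eif4ebp2 in Atf3 against control ranged from -0.000588 to 0.0535, and in Atf4 against control Herpud1 from -0.00895 to 0.0630, Trib1 from -0.180 to 0.0788 and Trib2 from -0.0640 to 0.0612.

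Same-numbered libraries of different lines correlated at -0.0791 to 0.0985 in 15 pairs, 0 of them over 0.1, and 5 of 30 comparisons were highest for the own number. With the replicate number as a block, 9, 9 and 7 genes were called in the 3 comparisons, as without it, and 13132, 10968 and 7589 of all genes. Control libraries held as few as 29 counts of Chac1 and 40 of Trib3, and the part of counting error in their folds was not tested. For Atf3 against control the SE was 0.34 for Chac1 and 0.30 for Trib3. Without Atf4 replicate 5 these were 0.18 and 0.16.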
